A study of Canis lupus familiaris with 6 samples.

Results

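Eph receptors and their ephrin ligands were read from microarrays of transformed dog kidney epithelial cells, cultured alone or among surrounding epithelial cells. The genes were a set of 10 (EPHA1, EPHA2, EPHA4, EPHB2, EPHB3, EPHB4, EFNA1, EFNA5, EFNB1 and EFNB2), picked because EPHA2 is known for driving repulsion between RasV12 and normal MDCK cells. A probe was taken when its gene name in the array design equalled one of these symbols. That gave 13 probes for 9 genes, out of 43603 non-control probes and 14227 named symbols on the array. No probe carried the name EFNA5. No measured value entered the choice of probes, although results from these arrays were known when the set was made.

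All samples were MDCK cells, a line of canine kidney epithelium, that carry a tetracycline-inducible GFP-tagged RasV12 (MDCK-pTR GFP-RasV12), the constitutively active mutant of Ras, together with mCherry-β-catenin Δ131, a β-catenin without its N-terminus that mimics active Wnt signaling (β-cat ΔN/RasV12 cells). They were grown on collagen type I either by themselves (single culture, 3 arrays) or among MDCK cells carrying mCherry-β-catenin Δ131 without RasV12 at 10 of these per RasV12 cell (mix culture, 3 arrays). Both cultures received tetracycline for 24 h, and GFP-positive cells were then sorted for total RNA, so RasV12 induction and β-cat ΔN were shared by both groups and neither serves as a control without them. β-cat ΔN was expressed from the EF1 promoter of an integrated vector under drug selection. Nothing in the labels says whether the 3 samples of a group came from separate cultures, so the p-values measure the spread between these samples alone, which may be technical.

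Eph receptors form the largest family of receptor tyrosine kinases and bind ephrins on the surface of a touching cell. A-type ephrins are held by a lipid anchor and B-type ephrins span the membrane, and both receptor-bearing and ephrin-bearing cells can signal. In epithelia these contacts are known for repulsion, for sorting cells into separate territories and for setting boundaries, as EPHB2 and EPHB3 do along the intestinal crypt.

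The arrays measure these transcripts through 60-base oligonucleotides. For each gene that could be tested, 1 probe is shown with its position in CanFam3.1, as the array design gives it. For EPHA1, EPHA2, EPHA4 and EPHB2 it is the only probe. For EPHB3, EFNA1 and EFNB1 it is a dimmer probe, whose values are given beside those of the probe that stands for the gene.

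EPHA1: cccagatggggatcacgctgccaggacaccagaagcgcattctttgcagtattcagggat
EPHA2: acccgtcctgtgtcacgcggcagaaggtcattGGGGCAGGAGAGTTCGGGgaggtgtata
EPHA4: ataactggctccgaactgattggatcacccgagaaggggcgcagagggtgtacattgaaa
EPHB2: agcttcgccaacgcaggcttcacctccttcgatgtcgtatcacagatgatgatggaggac
EPHB3: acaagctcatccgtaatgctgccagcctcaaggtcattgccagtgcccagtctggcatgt
EFNA1: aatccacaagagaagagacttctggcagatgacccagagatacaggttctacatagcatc
EFNB1: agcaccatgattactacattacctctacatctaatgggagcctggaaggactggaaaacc

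Capitals in the EPHA2 probe, bases 33 to 50 from its 5′ end, mark codons of the glycine-rich loop, the part of the kinase domain that closes over ATP. The EPHA2 probe lay at chr2:81553520-81553675 (plus strand), a genomic span of 156 bases for a 60-base probe, so it crosses an intron. The EPHB2 probe (chr2:76428308-76428868, minus strand) crosses an intron as well, as do the EPHB3 probe (chr34:17432241-17432626, plus strand), the EFNA1 probe (chr7:42374001-42374220, minus strand) and the EFNB1 probe (chrX:53302076-53302924, plus strand) shown. The EPHA1 probe (chr16:6303730-6303789, plus strand) and the EPHA4 probe (chr37:27805171-27805230, minus strand) each lie on a single unbroken stretch. EPHB3 and EFNB1 had 1 further probe each and EFNA1 had 2. These lay at chr34:17433630-17433689, at chrX:53305142-53305201, and at chr7:42373652-42373711 and chr7:42373226-42373285. Where a gene had several probes, the brightest tested one stands for it, and is called probe 1.

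Between 61.11% and 65.66% of spots on an array were well above background, and no spot was saturated. Replicate 1 of each culture lay on slide 1 and the other 4 arrays on slide 2. With the culture in the model, limma called 12565 of 26621 tested probes (47.2%) as different between slides, and 6 of the 11 tested Eph and ephrin probes were among them. Values within each slide and with the slide as a block are therefore given beside the pooled ones. All 8 epithelial markers on the array, such as CDH1 and EPCAM, were well above background on all 6 arrays. Markers of other cell types were mixed. COL3A1, PDGFRA and DCN (fibroblast), TEK (endothelium) and PTPRC and LYZ (leukocyte) were not well above background on any array, whereas COL1A2, PDGFRB, PECAM1, KDR, VWF, CD68, CD3E and CD14 were so on all 6. Signals of COL1A2 ranged from 102 to 312 intensity units, those of VWF from 742 to 3183 and those of CD68 from 177 to 253. Summed over the tested markers of a list, as multiples of each array's 75th percentile, epithelium had 447 to 523 in single culture and 330 to 445 in mix culture. Fibroblast had 0.751 to 1.72 and 0.644 to 1.36, endothelium 5.5 to 14 and 4.66 to 14.3, and leukocyte 1.33 to 1.56 and 1.3 to 1.42, in the same order. The part of these levels in the results was not tested.

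To ask whether surrounding β-cat ΔN cells go with a different set of Eph receptors and ephrins in β-cat ΔN/RasV12 cells, mix culture was compared with single culture. Of the 7 genes tested, EPHA2, EPHB2, EPHA1, EPHB3 and EFNB1 had lower mean levels and EPHA4 and EFNA1 higher mean levels in mix culture, where quantile scaling turned EPHB3 to a higher level and normexp background correction turned EPHA4 to a lower one. The largest difference was that of EPHA2, whose signal in mix culture was 0.646 times that in single culture. None of the 7 passed limma's adjusted p of 0.05, with or without the slide as a block. Over all tested probes, limma called 0.871% (0.804% higher and 0.0676% lower in mix culture), and with the slide as a block 7.22%.

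**Figure D1:**
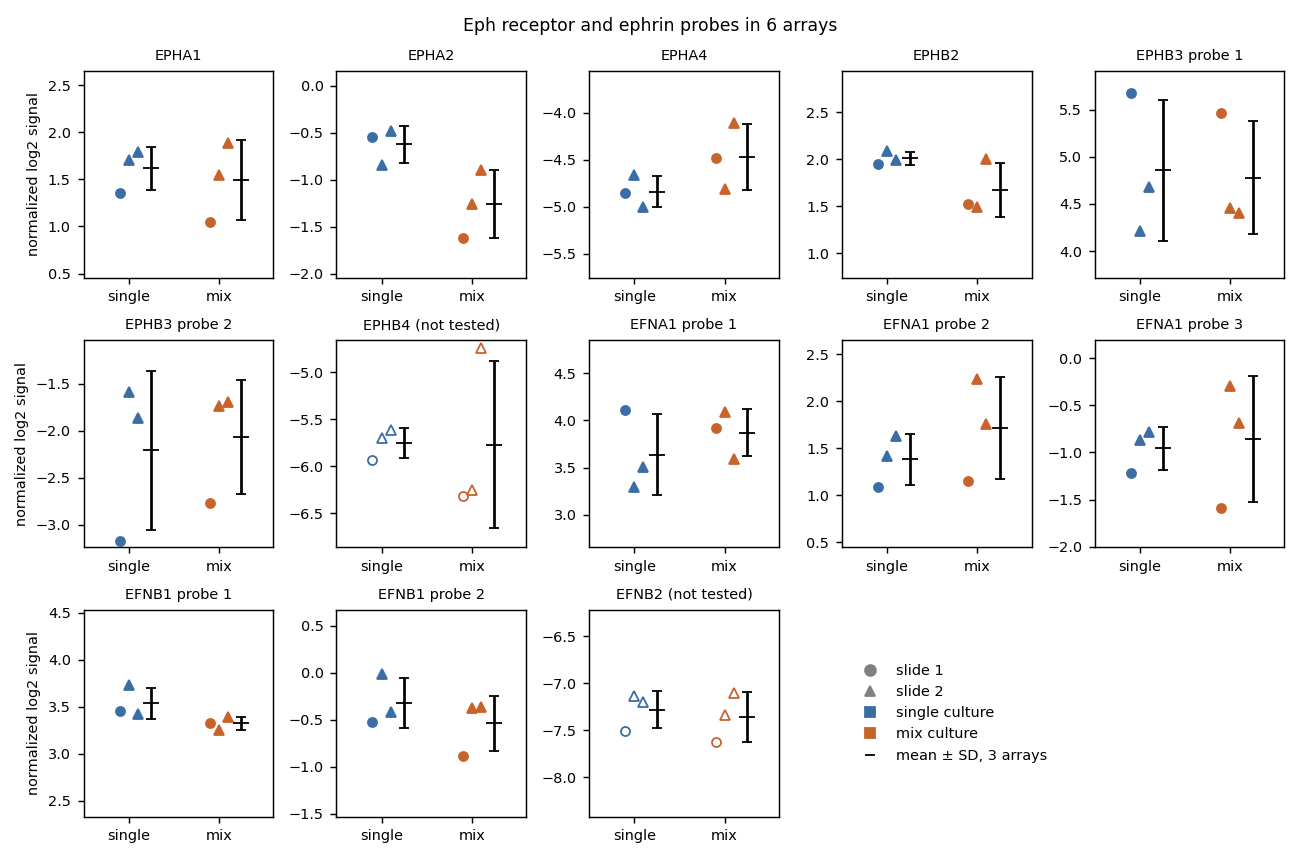
Normalized log2 signal (log2 intensity minus the 75th percentile of the array) of the 13 Eph and ephrin probes in single and mix culture, 1 panel a probe with its own axis range. Circles are arrays of slide 1, triangles arrays of slide 2, open symbols probes too dim to test, and bars the mean ± SD of 3 arrays. All 3 EPHA2 values of mix culture lie below those of single culture, and the EPHB3 probes separate by slide more than by culture.

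Among the A-type receptors, EPHA2, which binds ephrin-A ligands and is the receptor most often raised in epithelial tumors, gave background-subtracted signals of 140, 92.6 and 123 intensity units in single culture replicates 1, 2 and 3. In mix culture they were 75.9, 75.5 and 86.6. All 3 mix values were below all 3 single values, on the linear scale and after normalization. The margin after normalization was narrow, with -0.89 in mix culture replicate 3 and -0.85 in single culture replicate 2 (log2). On the normalized log2 scale, single cultures had -0.63 ± 0.20 (SD, n = 3 arrays) and mix cultures -1.26 ± 0.36 (SD, n = 3 arrays). EPHA2 thus had a log2 change of -0.63 (SE 0.22, 95% confidence interval -1.16 to -0.10), with a limma adjusted p of 0.457. With the slide as a block, the SE was 0.18, the interval was -1.05 to -0.21 and limma's adjusted p was 0.0791.

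EPHA2 was lower in mix culture on both slides, with differences of -1.07 within slide 1 and -0.41 within slide 2 (log2). Slide 1 held 1 array of each culture, so the larger difference has no replicate. The EPHA2 signal itself was not called as different between slides, with a log2 difference of 0.21 (limma adjusted p = 0.387). In the authors' log2 table, which was centred within each slide, the change was -0.64 and limma's adjusted p was 0.0479. Centring uses up degrees of freedom that this p does not count. That table and the scanner files exchange mix culture replicates 2 and 3, which leaves a comparison of group means as it is. With the slide as a block and single culture replicate 2 left out, the change was -0.80 and the adjusted p was 0.0422. Over all alternatives, those that left out an array included, the adjusted p lay between 0.0422 and 0.946.

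HRAS, the gene that encodes H-Ras, and CDH1, the gene of the adhesion protein E-cadherin, had lower mean values in mix culture beside EPHA2. For HRAS the log2 change was -0.62 (SE 0.28), with a limma adjusted p of 0.608, or 0.0648 with the slide as a block. The HRAS values of the cultures overlapped, with 6.20 in mix culture replicate 3 and 5.97 in single culture replicate 1 (normalized log2). For CDH1 it was -0.47 (SE 0.15), with an adjusted p of 0.381, or 0.0444 with the slide as a block. That call of CDH1 was lost when any of the 6 arrays was left out (adjusted p-values of 0.0726 to 0.18). Leaving out either array of slide 1 leaves the fit of slide 2 alone, so these are not 6 separate checks. The other CDH1 probes gave -0.46 and -0.60 (limma adjusted p-values of 0.047 and 0.0414 with the slide as a block). With the replicate number as a block, limma called none of the CDH1 probes (adjusted p-values of 0.0543 to 0.0785). Whether the HRAS probe reads the introduced RasV12 is not stated in the sources used here. All 8 epithelial markers had log2 changes below 0, from -0.47 to -0.02, with a median of -0.21, and with quantile scaling 7 of 8 did, EPCAM turning to 0.11. For CTNNB1, the gene of β-catenin, the log2 change was 0.26. The part of these in the EPHA2 value was not tested. In RNA from sorted pools, fewer cells of a type and less RNA per cell cannot be told apart.

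**Figure D2:**
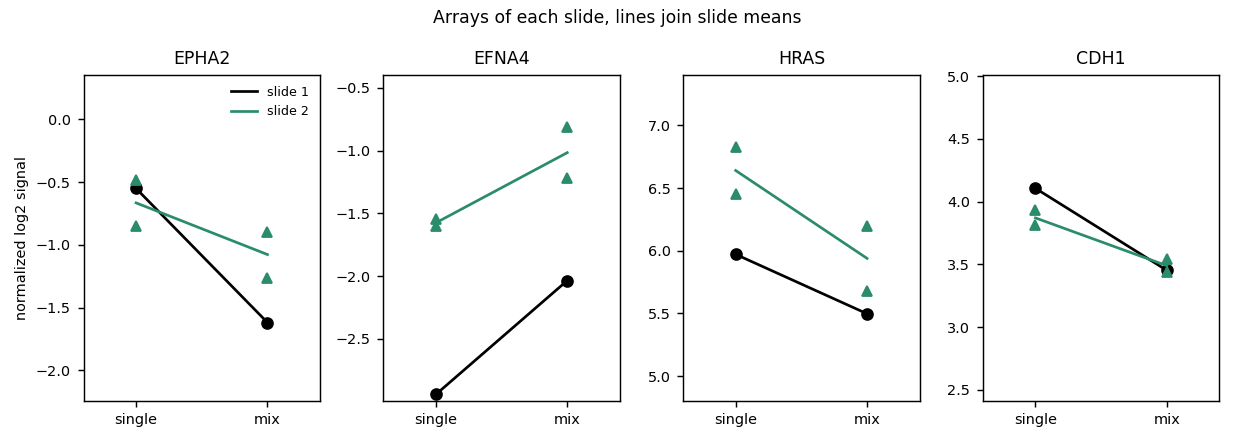
Normalized log2 signal of EPHA2, EFNA4, HRAS and CDH1 (brightest tested probe each) in single and mix culture. Points are arrays, and lines join the means within slide 1 (circles, 1 array a culture) and slide 2 (triangles, 2 arrays a culture). EPHA2, HRAS and CDH1 slope down and EFNA4 slopes up on both slides, and the levels of EFNA4 differ between the slides by more than its change between cultures.

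EPHA1, another ephrin-A receptor of epithelia, had normalized log2 signals of 1.36, 1.70 and 1.79 in single culture and 1.04, 1.55 and 1.89 in mix culture. The cultures overlapped, and both values of slide 1 lay below all 4 of slide 2. Its log2 change was -0.12 (SE 0.25, interval -0.71 to 0.47), with a limma adjusted p of 0.968, and its slide difference was called (0.53, adjusted p = 0.0144).

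EPHA4, which binds ephrins of both types, was close to background. Its signals were 7.10, 6.58 and 5.39 intensity units in single culture and 10.5, 6.42 and 9.28 in mix culture, where the lowest signal that counted as well above background was 4.19 to 4.48, depending on the array. Replicates 1 and 3 of mix culture were above all single cultures, and replicate 2 lay among them. The log2 change was 0.37 (SE 0.22, interval -0.14 to 0.88, limma adjusted p = 0.761), 0.38 on slide 1 and 0.37 on slide 2. With another background correction, normexp, it was close to 0.

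Among the B-type receptors, EPHB2, an ephrin-B receptor known for positioning cells along the intestinal crypt and as a target of Wnt signaling, had normalized log2 signals of 1.95, 2.09 and 1.99 in single culture. In mix culture they were 1.53, 1.49 and 2.0. Replicates 1 and 2 of mix culture were below every single culture, and replicate 3 was among the single cultures. The log2 change was -0.34 (SE 0.19, interval -0.78 to 0.10), with a limma adjusted p of 0.734. With the slide as a block, the SE was 0.15 and the adjusted p 0.192. The change was -0.42 on slide 1 and -0.30 on slide 2.

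EPHB3, which acts with EPHB2 in the crypt, was read by 2 probes whose starts lie 1389 bases apart. The array design assigns them to different transcripts. Probe 1 begins with a long stretch of TG repeats, and whether it reads EPHB3 alone was not tested. EPHB3 probe 1 had normalized log2 signals of 5.68, 4.21 and 4.68 in single culture and 5.47, 4.46 and 4.40 in mix culture. Both arrays of slide 1 were above all 4 of slide 2, and the cultures overlapped. Its log2 change between cultures was -0.08 (SE 0.44, limma adjusted p = 0.986), and with the slide as a block the interval was -0.41 to 0.25. EPHB3 probe 2, the one printed above, had -3.17, -1.59 and -1.87 in single culture and -2.77, -1.73 and -1.70 in mix culture, so both arrays of slide 1 were below all 4 of slide 2. Its log2 change between cultures was 0.14 (SE 0.47, adjusted p = 0.981). Slide 2 minus slide 1 was -1.14 for probe 1 (limma adjusted p = 0.000837) and 1.25 for probe 2 (adjusted p = 0.000413), in opposite directions for the 2 probes of that name.

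EPHB4, the receptor paired with ephrin-B2 in vessels, was well above background on 1 of 6 arrays, mix culture replicate 3. Its signals were 3.38, 3.2 and 3.51 in single culture and 2.93, 2.38 and 6.0 in mix culture. It was not tested, and no fold is given, since a bound on it fell under 1.

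Among the A-type ephrins, EFNA1, a ligand of EPHA2, was read by 3 probes. EFNA1 probe 1 had normalized log2 signals of 4.12, 3.29 and 3.50 in single culture and 3.92, 4.09 and 3.60 in mix culture, and the cultures overlapped. Its log2 change was 0.23 (SE 0.25, interval -0.37 to 0.84), with a limma adjusted p of 0.917. The other EFNA1 probes gave 0.33 (SE 0.30) for probe 2 and 0.10 (SE 0.33) for probe 3, the one printed above, with adjusted p-values of 0.874 and 0.981. On slide 2 all 3 probes were higher in mix culture, by log2 changes of 0.33 to 0.47. On slide 1 the probes gave -0.19, 0.06 and -0.37. Mix culture replicate 2 was the highest of the 6 arrays for probes 2 and 3.

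No probe was named EFNA5. A probe that the design describes as ephrin-A5, under another name, was not well above background on any array.

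Among the B-type ephrins, EFNB1, a transmembrane ligand of EPHB2 and EPHB3, had normalized log2 signals of 3.46, 3.73 and 3.43 in single culture and 3.33, 3.26 and 3.39 in mix culture with probe 1. All 3 mix values were below all 3 single values by a narrow margin. The log2 change of EFNB1 was -0.21 (SE 0.16, interval -0.58 to 0.16), with a limma adjusted p of 0.83, and -0.13 on slide 1 and -0.25 on slide 2. EFNB1 probe 2, the one printed above, gave -0.22 (SE 0.22, adjusted p = 0.899), and its cultures overlapped. EFNB2, the ligand of EPHB4, was not well above background on any array, with signals of 1.12 to 1.19 intensity units, and was not tested.

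**Figure D3:**
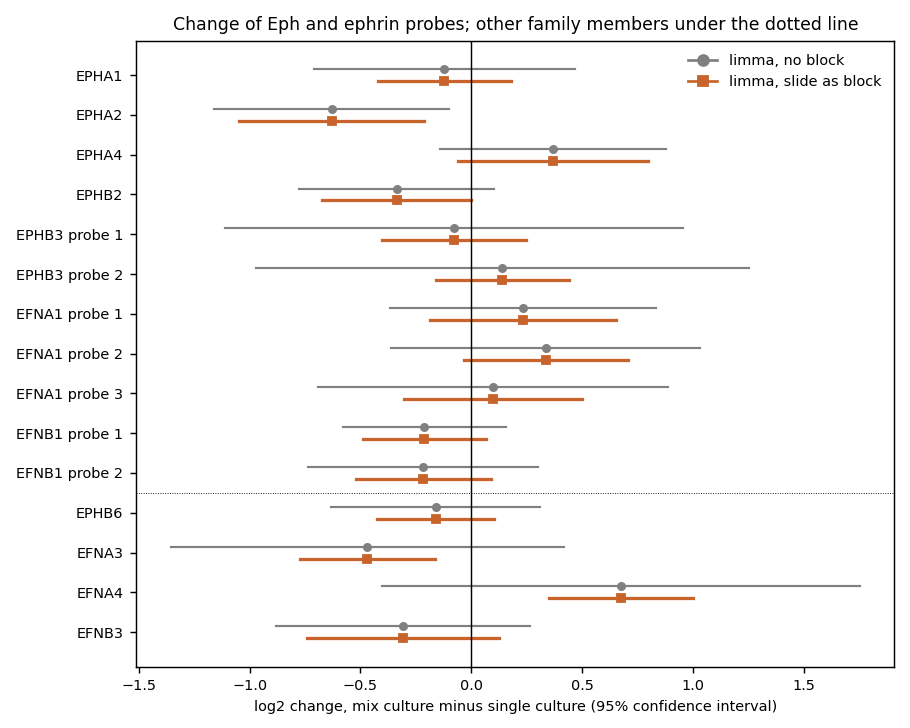
Log2 change between cultures (mix minus single) of the 11 tested Eph and ephrin probes and, under the dotted line, of 4 other family members. Points are limma estimates and lines 95% confidence intervals, grey without a block and orange with the slide as a block. The intervals with the slide as a block lie wholly below 0 for EPHA2, EPHB2 and EFNA3 and wholly above 0 for EFNA4, before adjustment for the number of probes tested.

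Over the 7 genes, 5 changes were below 0 and 2 above, with a median log2 change of -0.12 (4 and 3 with quantile scaling, 6 and 1 with normexp). Over all 26621 tested probes, 57.96% were below 0, with a median of -0.05. By limma without a block, 1 of the 11 probes (EPHA2) had an unadjusted p under 0.05, and with the slide as a block 2 had (EPHA2 and EPHB2). Over all tested probes, 8.71% had such a p without a block and 25.9% with the slide as a block. The methods' t-test gave 0 at that threshold. The cultures did not overlap for 2 of the 11 probes, EPHA2 and EFNB1 probe 1, where 16.5% of all tested probes did not overlap and 8.67% did so with mix culture lower, as both of these were. The sign of the change was the same on both slides for 9 of the 11 probes, where 70.7% of all tested probes had the same sign. The exceptions were EFNA1 probes 1 and 3.

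**Figure D4:**
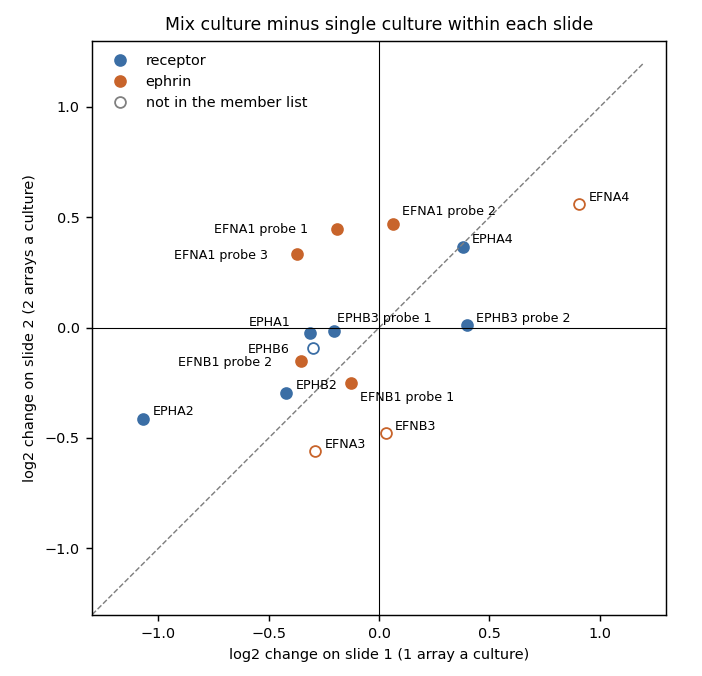
Log2 change (mix minus single) within slide 1, on 1 array a culture, against that within slide 2, on 2 arrays a culture, for each tested probe. Blue marks receptors, orange ephrins, and open symbols family members outside the set of 10; the dashed line is equality. EPHA2 and EPHB2 are below 0 and EPHA4 and EFNA4 above 0 on both slides, while EFNA1 probes 1 and 3 and EFNB3 change sign.

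Of 12 further members of the family, 9 were on the array and 4 could be tested. For EPHB6, a receptor without kinase activity, the log2 change was -0.16 (SE 0.20), with a limma adjusted p of 0.936. For EFNB3, a B-type ephrin, it was -0.31 (SE 0.24, adjusted p = 0.848), with 0.03 on slide 1 and -0.48 on slide 2. EPHA3, EPHA5, EPHA7 and EPHB1 were not well above background on any array.

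EFNA4, an A-type ephrin, had signals of 26.8, 57.1 and 56.7 intensity units in single culture and 56.9, 103 and 69.2 in mix culture. Within each slide, every mix culture was above every single culture, while the cultures overlapped across slides. EFNA4 had a log2 change of 0.68 (SE 0.46, interval -0.40 to 1.75), with a limma adjusted p of 0.803, and 0.91 on slide 1 and 0.56 on slide 2. With the slide as a block the SE was 0.14 and the adjusted p 0.0287, so that EFNA4 rose by this test, which called 4% of all tested probes as higher. With the replicate number as a block, limma's adjusted p for EFNA4 was 0.0361, and 5.3% of all tested probes were called. The slide block no longer called EFNA4 when any array other than mix culture replicate 3 was left out, with adjusted p-values of 0.0501 to 0.133. On all 6 arrays, the other settings gave EFNA4 adjusted p-values from 0.0185 in the authors' table to 0.998 with normexp. With normexp the log2 change of EFNA4 was 0.31.

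EFNA3, another A-type ephrin, went the other way. Its normalized log2 signals were -4.11, -2.98 and -3.05 in single culture and -4.40, -3.39 and -3.76 in mix culture, lower in mix culture on both slides and overlapping across slides. On average the log2 change was -0.47 (SE 0.38), with a limma adjusted p of 0.85, or 0.0746 with the slide as a block. In the authors' centred table its limma adjusted p was 0.0428. With normexp the change was -0.145 (limma adjusted p = 0.998). EFNA3 was dim, with signals of 11.1 to 21.1 intensity units.

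Proteins that carry, cut or switch off Eph and ephrin signals were read through a list of 65 further genes, of which 59 were on the array and 54 could be tested. limma called 0 of the 54 without a block, and the methods' t-test with adjustment called 0. An unadjusted p under 0.05 was reached by 3 (5.56%) without a block, against 8.71% of all tested probes, and by 19 (35.2%) with the slide as a block, against 25.9%. With the slide as a block, limma called 3, CHN1, CAV1 and GRIP1, all lower in mix culture. By that test 7.22% of all tested probes were called in either direction, and 3.23% were called lower. In all, 33 of the 54 changes (61.1%) were below 0 and 21 above, with a median of -0.11. Over all tested probes, 57.96% were below 0, with a median of -0.05. The cultures did not overlap for 7 of the 54, where 16.5% of all tested probes did not overlap.

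CHN1, which encodes α-chimaerin, a Rac inactivator that acts downstream of EPHA4, had normalized log2 signals of 2.34, 1.33 and 1.38 in single culture and 0.62, 0.69 and 0.24 in mix culture. All mix cultures were below all single cultures. This gave CHN1 a log2 change of -1.17 (SE 0.30), with a limma adjusted p of 0.225, or 0.0117 with the slide as a block. Within slide 1 it was -1.72 and within slide 2 it was -0.89. Its other probe gave -1.11 (adjusted p = 0.0235 with the slide as a block). Without mix culture replicate 3, CHN1 was no longer called with the slide as a block (adjusted p = 0.0579).

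CAV1, the gene of caveolin-1, a membrane scaffold protein, had 6.86, 7.02 and 6.92 in single culture and 6.29, 6.14 and 6.34 in mix culture on the normalized log2 scale. The groups stood apart. Their difference for CAV1 was -0.67 (SE 0.15), with a limma adjusted p of 0.135, or 0.0107 with the slide as a block. Its other probe gave -0.69 (adjusted p = 0.0207 with the slide as a block). Without single culture replicate 3, CAV1 was no longer called with the slide as a block (adjusted p = 0.0549).

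GRIP1, a scaffold protein that binds the tails of B-type ephrins, differed by -0.55 on the log2 scale (SE 0.30), with a limma adjusted p of 0.732, or 0.0251 with the slide as a block. Its call with the slide as a block held only without single culture replicate 2, among the arrays left out in turn. Leaving out any of the others gave adjusted p-values of 0.0629 to 0.112. On all 6 arrays, the adjusted p ranged over the settings from 0.00848 to 0.443 for CHN1, from 0.00968 to 0.331 for CAV1 and from 0.00852 to 0.998 for GRIP1.

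By role, the 13 adaptors and kinases tested had a median log2 change of 0.02, with 7 above 0 and 6 below. FYN, a Src-family kinase, had -0.52 (limma adjusted p = 0.0586 with the slide as a block), and SRC had 0.02. The 19 regulators and effectors of small GTPases had a median of -0.17, and 14 were below 0, among them RAC1 (-0.39) and CDC42 (-0.33), while RHOA had -0.17. The 9 phosphatases, ubiquitin ligases and SAM partners had a median of -0.11, with 6 below 0, and INPPL1, a phosphatase that binds EPHA2, had -0.11. Of 4 proteases 3 were above 0, and ADAM10, which sheds ephrins, had 0.08. Of 9 ephrin partners 6 were below 0, with a median of -0.12. Beside these counts, 57.96% of all tested probes were below 0.

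**Figure D5:**
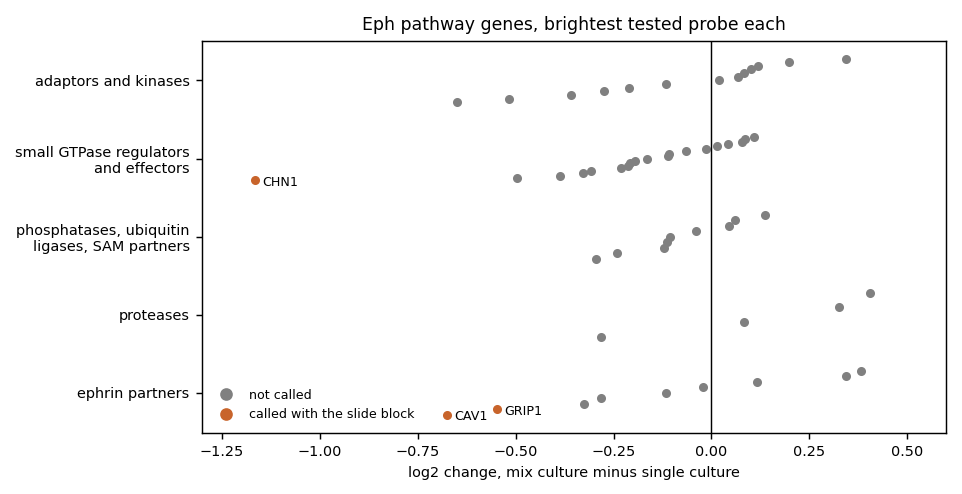
Log2 change between cultures (mix minus single) of 54 tested Eph pathway genes, 1 point a gene at its brightest tested probe, in 5 role groups stacked on the vertical axis. Orange marks the 3 genes called by limma with the slide as a block, CHN1 (-1.17), CAV1 (-0.67) and GRIP1 (-0.55), all below 0.

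Of 16123 probes well above background on all 6 arrays that carry a symbol, the 5 symbols whose normalized log2 signal followed EPHA2 most closely were GOT2, SLC20A1, ANKRD39, CHD4 and MTX2, with Pearson's r of 0.995 to 0.987 over 6 arrays. The arrays share slides and cultures, and 342 probes reached an r of 0.9, so this describes likeness alone. The log2 changes of the 5 between cultures lay from -0.42 to -0.19, and none was called.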

How the data were processed

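RNA of 6 samples, 3 single and 3 mix cultures, was labeled with Cy3 and hybridized to the Agilent Canine (V2) 4 × 44K array by the authors. They deposited 1 scanner file per array, with spot intensity on a linear scale, background-subtracted by Agilent Feature Extraction (11.5.1.1 for slide 1, scanned at 3 µm, and 12.1.1.1 for slide 2, scanned at 5 µm) and not scaled between arrays. Such files also hold flags for outlier, saturated and well-above-background spots. A second deposited table holds log2 values of the same arrays, whose columns match scanner values centred per probe within each slide (correlations over probes of 0.991 to 0.997). Its mix culture replicate 2 column, however, followed the scanner file of replicate 3 (0.997, against 0.469 for its own), and its replicate 3 column that of replicate 2 (0.991, against 0.481). Which source carries the right numbers cannot be told apart here. Numbers below are those of the scanner files, and the crossed replicate block takes the other order. Its steps are not given in the sources used here.

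From the intensities, log2 was taken, outlier spots were dropped (5 to 9 per array), spots of a probe were averaged, and the 75th percentile of each array (161 to 233 intensity units) was subtracted. Tested probes (26621) had no flagged array and were well above background on all 3 arrays of either culture. The comparison of cultures used lmFit and eBayes of limma 3.58.1 (R 4.3.3), two-sided and without a block. P-values were adjusted by Benjamini-Hochberg over all tested probes, and a probe was called below an adjusted p of 0.05. Gene names are those of the array design, and tables were made with pandas 2.3.3 in Python 3.11.15. The test was tried on simulated data first. With 6 arrays, their number limits the precision.

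Groups came from the sample titles. Alternatives were the slide or the replicate number as a block (also with mix culture replicates 2 and 3 exchanged), quantile scaling, normexp (offset 50), other filters, the authors' table, the methods' unpaired t-test, slide 2 alone, each array left out in turn, and the mean of a gene's probes. The slide block with an array left out or with quantile scaling was chosen after seeing the data. With the slide block, leaving out either array of slide 1 gives the fit of slide 2 alone, so those leave-outs are not separate checks. Deviations from the group means correlated, over probes, between same-numbered samples (0.801, 0.53 and 0.572). Samples of slide 2 with different numbers correlated more than the same-numbered ones there (0.61 and 0.632), and 0.801 is the only pair of slide 1. These correlations therefore cannot tell whether the title numbers pair the samples of slide 2. The replicate block took the numbers of the titles as they stand. Genes and lists were chosen with earlier results of these data known. Named were all genes of the set, the tested rest of the family, pathway genes called or with the 3 largest changes without overlap, and the 5 symbols most like EPHA2, with HRAS, CTNNB1 and markers of epithelium, fibroblast, endothelium and leukocyte. One gene that this rule selects is not reported here. None of the 3 tested fibroblast markers, 3 endothelial and 3 leukocyte markers was called, with or without the slide block. FYN, SRC, RAC1, CDC42, RHOA, INPPL1 and ADAM10 were added as examples after their values were seen.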

Additional observations from a re-analysis of the deposited data

How the results depend on the processing

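Over 19 gene results and 365 alternative values, 313 kept their direction and their side of the threshold, 41 kept the direction and passed it, and 11 turned in direction. None of the 19 was called without a block. The 232 called probes became 1923 with the slide block, 1411 with the replicate block, 1459 with the replicate block crossed, 101 with normexp, 143 when every array had to be well above background, 4077 in the authors' table, 8 by the methods' t-test, 985 on slide 2 alone, and 86 to 244 with an array left out (94 without single culture replicate 3, 92 without mix culture replicate 2 and 86 without mix culture replicate 3). Of the 232, 214 were higher in mix culture, against 1064 of 1923 with the slide block. Among the tested genes of the set of 10, the count called, 0, was 1 in the authors' table and 1 with the slide block without single culture replicate 2, both EPHA2. The replicate block called none of them (EPHA2, adjusted p = 0.0723). Of the 54 other pathway genes tested, 0 became 3 with the slide block, the replicate block, the crossed block, and the slide block with quantile scaling. It became 9 in the authors' table and 2 on slide 2 alone. Over all 26621 tested probes, limma called 7.22% with the slide block, 5.3% with the replicate block, 4077 in the authors' table and 985 on slide 2 alone. With the slide block and an array left out, it was 1 to 3, and it was 1 without single culture replicate 3 or mix culture replicate 3. The pairing changed the call of no other named gene besides EFNA4, CHN1, CAV1 and GRIP1 (the crossed pairing also called HRAS, adjusted p = 0.0296). The log2 change of EPHA4 turned to -0.0035 with normexp. That of EPHB3 (-0.08) turned to 0.031 with quantile scaling, 0.033 in the authors' table and 0.031 with the mean of its probes. With an array left out, EPHA1 ranged from -0.32 to 0.10, EPHB3 from -0.42 to 0.33 and TJP1 from -0.30 to 0.14. None of these passed the threshold, and the cause was not tested. The other probe of TJP1, an epithelial marker, gave -0.45, and its cultures did not overlap. Its limma adjusted p was 0.482 without a block, 0.0396 with the slide block and 0.0681 with the replicate block. Signal near background limits EPHA4, EPHB4 and EFNB2. In the rest of the family it limits EFNB3 (5.5 to 13.1 intensity units) and EFNA3 (11.1 to 21.1).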

Other observations

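Of 4142 symbols with 2 or more tested probes, 387 (9.34%) had probes whose slide differences were called in opposite directions, and EPHB3 was among them. The EFNA1 probes had slide differences (slide 2 minus slide 1) of -0.40 for probe 1 (limma adjusted p = 0.122), 0.64 for probe 2 (adjusted p = 0.0166) and 0.75 for probe 3 (adjusted p = 0.0119). Those of the EFNB1 probes were 0.05 for probe 1 (adjusted p = 0.753) and 0.41 for probe 2 (adjusted p = 0.0431).

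EPHA6, a receptor outside the set of 10, had a probe with signals of 0.898 and 0.951 intensity units on the slide 1 arrays and 2.70 to 5.97 on those of slide 2, well above background on 1 array of each culture. It was not tested.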
